A study of Mus musculus with 12 samples.

Results

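Genes of S phase and DNA replication were followed in blood stem and progenitor cells of mice that carried a KDM6B transgene, lacked Tet2, had both lesions or had neither. The set held 33 genes, taken by name from a table of 15366 genes, and all 33 were found there. Each of the 33 also passed the filter on low values, which left 13046 genes tested. They were listed by name for their known roles, with earlier results of these data known. No threshold on the measured values entered the choice.

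The cells were bone marrow cells of untreated C57BL/6 mice that lacked lineage markers and carried Sca-1 and Kit (LSK), sorted by flow cytometry. This fraction holds the blood stem cells and the multipotent progenitors. There were 4 genotypes with 3 libraries each, 12 in all. The control carried Vav Cre alone. A second group carried a human KDM6B gene driven by Vav sequences (KDM6B OE), and no Cre is named for it. In the third group Vav Cre acted on floxed Tet2 alleles (Tet2 KO), and the fourth carried the transgene, Vav Cre and floxed Tet2 together (double lesion). Vav sequences are active across blood cells, so neither lesion was limited to stem cells. Age and sex are not in the labels, and nothing there says that the 3 libraries of a group are separate animals. The p-values therefore measure the spread between these libraries, which may be technical in part. RNA came from 10 to 20 ng per library, amplified by template switching from oligo-dT.

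Before S phase, the helicase subunits MCM2 to MCM7 are loaded on DNA as an inactive ring by CDC6 and CDT1, a step called licensing. CDC45 and the GINS complex then join the ring and switch it on. Behind the opened fork, polymerase alpha with its primase starts each strand, the clamp PCNA is loaded by replication factor C, and FEN1 trims the flaps of lagging-strand fragments. Ribonucleotide reductase and thymidylate synthase supply the deoxynucleotides. Transcription of most of these genes is driven by E2F factors once RB has been inactivated. Most blood stem cells rest, while the progenitors of the LSK fraction divide.

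In the double lesion 10 of the 33 genes fell against Vav Cre and none rose. They were all 3 genes of nucleotide supply (Tyms, Rrm1, Rrm2), the GINS genes Gins1 and Gins2, the fork genes Clspn, Fen1, Tipin and Pcna, and the chromatin remodeller Hells. Their mean levels stood at 53.2% (Clspn) to 75.3% (Pcna) of the control. Of the 8 licensing genes, Mcm2 to Mcm7, Cdc6 and Cdt1, none passed the test. In neither single lesion did any of the 33 genes pass. Calls are those of limma on log2(CPM + 1), where CPM is the read count scaled to the authors' effective library size, at a Benjamini-Hochberg adjusted p under 0.05 over all 13046 genes. Of all genes tested, 7.58% were called lower in the double lesion and 7.34% higher. Values are CPM per library or mean ± SD (n = 3), and differences are on the log2(CPM + 1) scale with their SE.

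**Figure D1:**
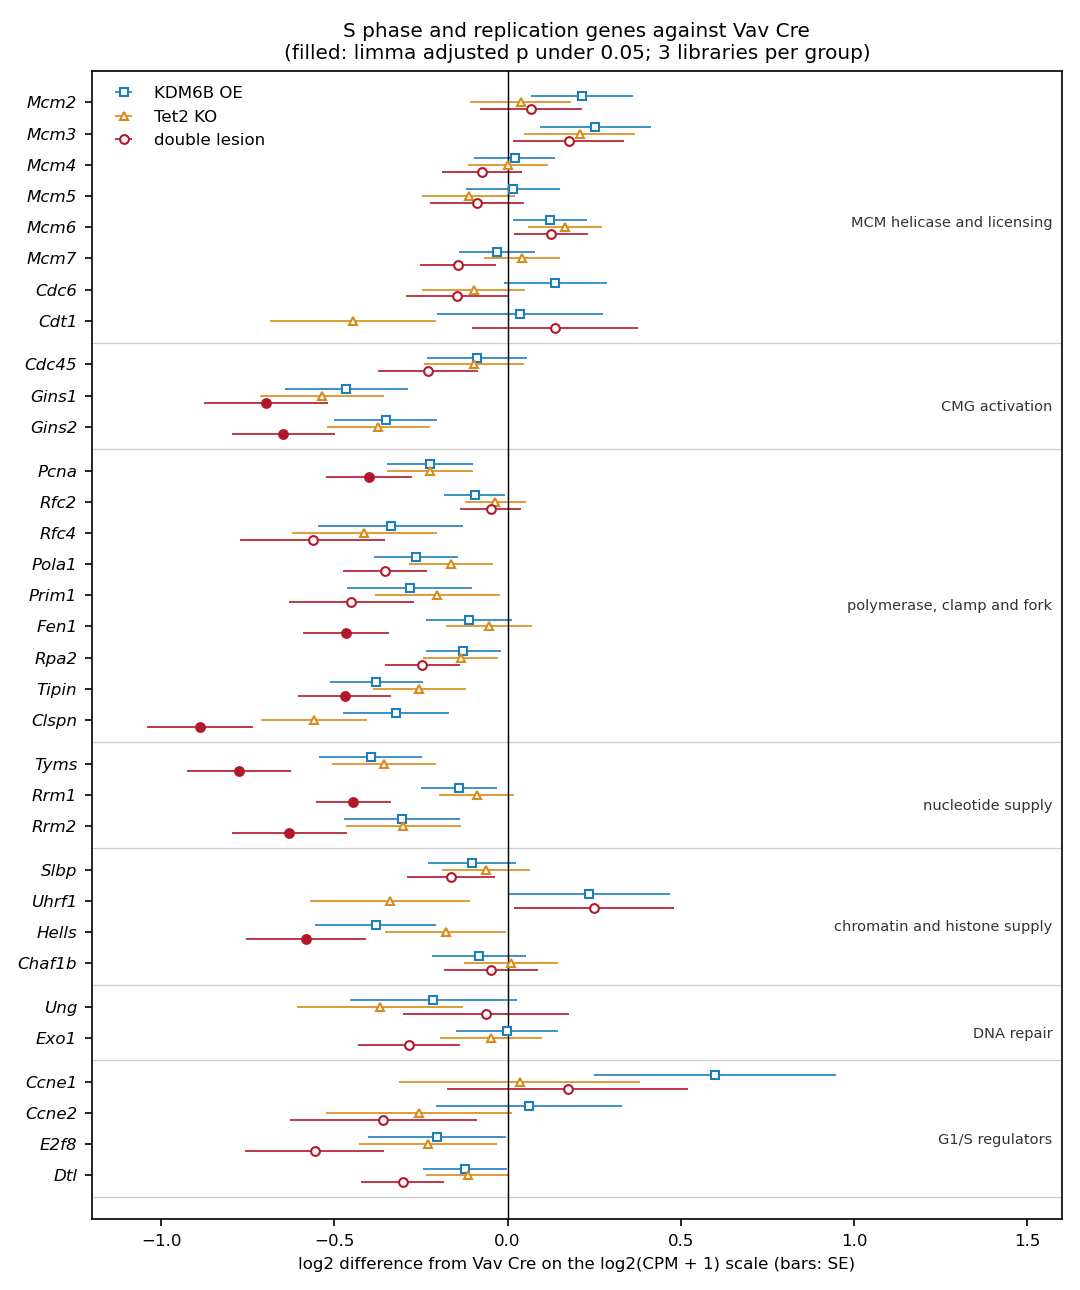
Log2 difference from Vav Cre (x axis, log2(CPM + 1) scale, bars are SE) of each of the 33 genes (y axis, grouped by role) in KDM6B OE (squares), Tet2 KO (triangles) and the double lesion (circles). Filled symbols passed limma's adjusted p under 0.05: 10 genes, all in the double lesion, and none of the 8 licensing genes.

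The libraries held 21935022 to 26263370 reads on listed genes, and 1 read was worth at most 0.0463 CPM. Tet2, the targeted gene, was at 82.1 ± 15.5 CPM in the control, 79.0 ± 12.3 in KDM6B OE, 26.8 ± 4.10 in Tet2 KO and 32.9 ± 5.70 in the double lesion, so it was low in both floxed groups. The human transgene was not analysed here. The mouse Kdm6b row was at 6.94 ± 0.844 CPM in the control, 10.2 ± 2.37 in KDM6B OE, 6.04 ± 0.758 in Tet2 KO and 10.5 ± 1.61 in the double lesion, and it passed in none of the comparisons. Of the defining surface markers, Kit was at 356 to 907 CPM, Ly6a (Sca-1) at 78.2 to 180.0 CPM and Cd34 at 821 to 1053 CPM over the 12 libraries. Erythroid progenitor markers (7 of the 10 looked for had a row, led by Car1) had summed levels of 361 to 1867 CPM in Vav Cre and 276 to 631 in the double lesion. They reached 471 to 524 CPM with the transgene alone and 377 to 809 CPM with the Tet2 deletion alone. Library Vav Cre 2 held the 1867, and the other 2 control libraries 361 and 689. Granulocyte and monocyte markers (12 of 12, led by Mpo) summed to 2688 to 5290 CPM in Vav Cre and 3455 to 6438 in the double lesion, with S100a9, Ltf and Camp at 0 in some library. B cell markers (8 of 8, led by Cd79b) summed to 82.6 to 90.6 CPM in Vav Cre and 81.8 to 115.0 in the double lesion, with Pax5, Ebf1 and Igll1 at 0 in some library. T cell markers (5 of 6, led by Lck) summed to 52.2 to 112 CPM in Vav Cre and 46.2 to 68.0 in the double lesion, with Cd3e, Cd3d and Cd3g at 0 in some library. With the transgene alone the granulocyte and monocyte, B cell and T cell sums were 3067 to 4219, 67.2 to 87.6 and 55.6 to 72.8 CPM. With the Tet2 deletion alone they were 3142 to 7816, 66.6 to 183 and 28.4 to 79.9 CPM. The sums rest on their most abundant genes. Gene by gene against Vav Cre, the double-lesion median was 0.76 for the granulocyte and monocyte list (9 of 12 positive, 3 called higher), 1.35 for the B cell list (6 of 7 tested positive, 2 called higher) and -0.53 for the erythroid list (5 of 7 negative, none called). In the same order the medians were 0.50 (11 of 12 positive), 0.61 (5 of 7) and -0.12 in Tet2 KO. In KDM6B OE they were 0.13 (7 of 12 positive), 0.09 (4 of 7) and -0.15. None of these genes was called in either single lesion. In the double lesion S100a8 (2.06), S100a9 (2.12) and Ngp (2.18) of the granulocyte list and Igll1 (1.96) of the B cell list were among the genes that rose on the log2(CPM + 1) scale. The Y-linked gene Ddx3y was at 71.6 to 88.6 CPM in library 1 of Vav Cre and of Tet2 KO and in double lesion 1 and 3, and at 0.732 CPM or less elsewhere. The part of these differences between libraries in the results was not tested beyond the values given beside them. In bulk RNA, fewer cells in S phase and less RNA of these genes per cell cannot be told apart.

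Nucleotide supply was the role in which every gene fell in the double lesion (3 of 3). Tyms encodes thymidylate synthase, which makes the thymidine nucleotide (chromosome 5, 30058202 to 30073617, GRCm38, as for all positions). It was at 189.6, 264 and 197 CPM in Vav Cre 1, 2 and 3 and at 103, 135 and 140.0 CPM in the double lesion. Every double-lesion library lay below every control library, and Tyms fell by 0.78 ± 0.15 (adjusted p = 0.00839). The single lesions lay between, at 149, 161 and 180.2 CPM in KDM6B OE and 165, 152 and 187 CPM in Tet2 KO. Rrm2, the small subunit of ribonucleotide reductase whose level rises in S phase (chromosome 12, 24708241 to 24714146), was at 286, 389 and 290.2 CPM in Vav Cre and 170.1, 214 and 238 CPM in the double lesion. It fell by 0.63 ± 0.17 (adjusted p = 0.0265), with Vav Cre 2 above the other 2 controls and no overlap between the groups. Rrm1, the large subunit of the same enzyme (chromosome 7, 102441695 to 102469771), was at 483, 537 and 535 CPM in Vav Cre and 337, 389 and 418 CPM in the double lesion. It fell by 0.45 ± 0.11 (adjusted p = 0.0200), again without overlap. Rrm2 was at 261 ± 47.2 CPM in KDM6B OE and 259 ± 28.3 in Tet2 KO, and Rrm1 at 471 ± 39.4 and 487 ± 40.2. A named pseudogene, Tyms-ps, exists, and how its reads were counted is not given in the sources used here.

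Of the genes that turn the loaded helicase on, the 2 GINS members fell and Cdc45 did not pass. Gins1 (chromosome 2, 150905400 to 150931280) was at 48.4, 62.8 and 44.3 CPM in Vav Cre and 27.5, 33.5 and 33.1 CPM in the double lesion (-0.70 ± 0.18, adjusted p = 0.0236). Gins2 (chromosome 8, 120578633 to 120589304) was at 61.0, 80.8 and 67.4 CPM in Vav Cre and 38.5, 46.1 and 47.5 CPM in the double lesion (-0.65 ± 0.15, adjusted p = 0.0167). In both genes the groups did not overlap, and Vav Cre 2 was the highest of the 12 libraries. Gins2 shares 2758 exon bases with Gse1 on the opposite strand, and the library kit does not mark strand, so its level is uncertain. Cdc45, the third part of the active helicase, was at 61.6, 76.3 and 75.2 CPM in Vav Cre and 51.3, 68.7 and 62.0 CPM in the double lesion, with overlap (-0.23 ± 0.14, adjusted p = 0.296). With each library's trend on transcript length and GC content removed, which was added after seeing the data, Gins1 was at -0.32 (adjusted p = 0.197) and Gins2 at -0.96 (adjusted p = 0.00513).

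Among the 9 genes of the polymerase, the clamp and the fork, 4 fell in the double lesion, and all 9 had a negative difference (8 of 9 with the libraries rescaled to equal totals, where Rfc2 was at 0.04). Clspn, or claspin, carries the signal of stalled forks to the checkpoint kinase CHEK1 (chromosome 4, 126556935 to 126593903). Its level was 54.2, 74.7 and 66.5 CPM in the control, 49.8, 50.7 and 53.9 CPM in KDM6B OE, 45.6, 36.8 and 49.2 CPM in Tet2 KO and 30.8, 33.7 and 39.5 CPM in the double lesion. The double-lesion libraries lay below all 3 control and all 3 KDM6B OE libraries, and 1 of them lay within the Tet2 KO range. Clspn fell by 0.89 ± 0.15 against Vav Cre (adjusted p = 0.00558), with a 95% interval of -1.22 to -0.56. It was the member of the set that passed under every one of the 21 alternatives tried (adjusted p from 3.2e-06 to 0.0428).

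Fen1, the flap endonuclease (chromosome 19, 10199132 to 10204169), was at 353, 364 and 395 CPM in Vav Cre and 247, 277 and 282 CPM in the double lesion. It fell by 0.47 ± 0.12 (adjusted p = 0.0275) without overlap, and its single-lesion levels reached the control range (290.1, 367 and 379 CPM in KDM6B OE, 342, 319 and 415 CPM in Tet2 KO). Fen1 shares 2039 exon bases with Tmem258 and Gm10143 on the opposite strand and is uncertain for the same reason as Gins2. Tipin, the partner of TIMELESS in the complex that protects the fork (chromosome 9, 64281581 to 64305424), was at 239, 287 and 197 CPM in Vav Cre and 148, 182 and 189 CPM in the double lesion (-0.47 ± 0.13, adjusted p = 0.0352). The sliding clamp gene Pcna (chromosome 2, 132249162 to 132253314) was at 400.1, 473 and 341 CPM in Vav Cre and 276, 308 and 329.7 CPM in the double lesion (-0.40 ± 0.12, adjusted p = 0.0453). Pcna and Tipin were the calls closest to the threshold with Hells. Pcna passed in 5 of the 21 alternatives and Tipin in 12, and with the length and GC trend removed they were at -0.10 (adjusted p = 0.424) and -0.21 (adjusted p = 0.176). Pcna has the named pseudogenes Pcna-ps1 and Pcna-ps2.

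The other 5 fork genes did not pass. Pola1, the catalytic subunit of polymerase alpha, was at 178, 185 and 191 CPM in Vav Cre and 138, 134 and 161 CPM in the double lesion, without overlap (-0.35 ± 0.12, adjusted p = 0.0650). Its primase partner Prim1 was at 132 ± 35.1 and 95.9 ± 20.0 CPM (-0.45 ± 0.18, adjusted p = 0.103). Rpa2, of the complex that coats single-stranded DNA, was at -0.25 ± 0.11 (adjusted p = 0.133) and did not overlap either. Rfc4 and Rfc2 encode subunits of the clamp loader. Rfc4 was at 70.6, 138 and 73.4 CPM in Vav Cre, with 1 library far above the others, and 51.0, 59.8 and 71.5 CPM in the double lesion (-0.56 ± 0.21, adjusted p = 0.0820). Rfc2 was at 485 ± 25.6 and 469 ± 17.9 CPM (-0.05 ± 0.09, 95% interval -0.24 to 0.14). Both, like Cdc45, Slbp, Ccne2 and E2f8, share some exon bases with a gene on the opposite strand.

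Of the 4 genes of chromatin and histone supply, Hells fell. It encodes a remodeller of the SNF2 family that is needed for DNA methylation at repeats (chromosome 19, 38930915 to 38971051). Its level was 99.96, 152 and 86.9 CPM in Vav Cre and 67.7, 78.5 and 73.3 CPM in the double lesion (-0.58 ± 0.17, adjusted p = 0.0407), with no overlap and with Vav Cre 2 the highest of the 12. Uhrf1, which brings the maintenance methylase DNMT1 to newly copied DNA, went the other way in value without passing, at 89.5, 76.1 and 158 CPM in Vav Cre and 114, 125 and 127 CPM in the double lesion (0.25 ± 0.23, adjusted p = 0.486). It was at -0.06 with the length and GC trend removed. It ranged widest among the controls and was lowest in Tet2 KO 2 (58.7 CPM). Chaf1b, of the complex that places histones behind the fork, was at -0.05 ± 0.13 (95% interval -0.34 to 0.24), and Slbp, which binds the stem-loop of histone mRNA, at -0.16 ± 0.13 (-0.44 to 0.11).

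**Figure D2:**
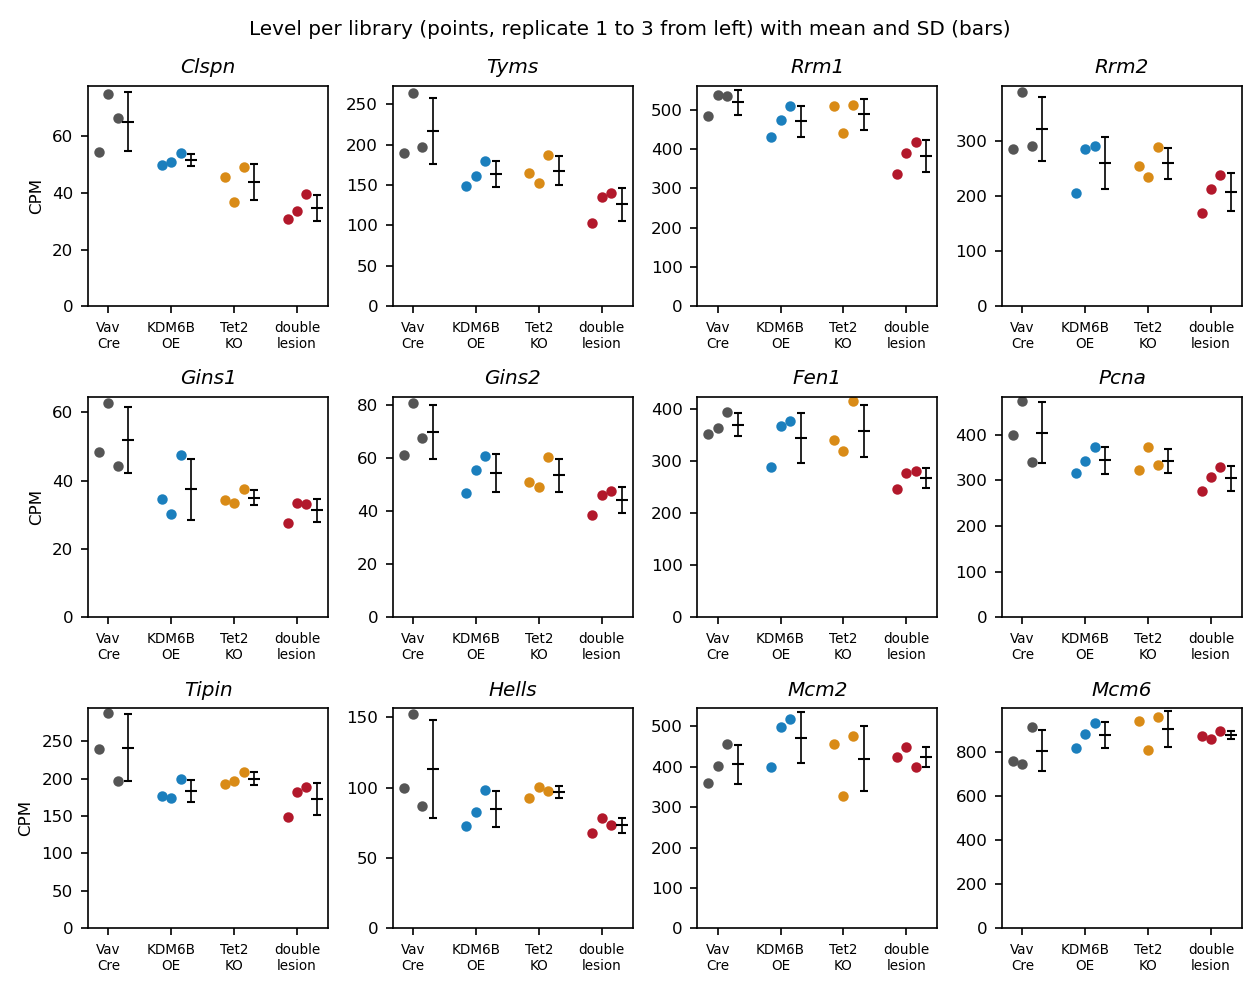
CPM (y axis, from 0) per library in the 4 genotypes (x axis) for the 10 genes that fell in the double lesion and for 2 helicase genes, Mcm2 and Mcm6. Points are libraries 1 to 3 from left to right and bars are mean and SD. In the 10 genes every double-lesion point lies below every Vav Cre point, and in Mcm2 and Mcm6 the groups overlap.

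None of the 8 licensing genes passed in the double lesion. The 6 helicase genes had differences from -0.14 (Mcm7) to 0.18 (Mcm3), with adjusted p from 0.389 to 0.785. Mcm2 was at 359, 402 and 456 CPM in Vav Cre and 425, 448 and 398 CPM in the double lesion, and Mcm6 at 759, 743 and 914 CPM and 869.7, 859 and 895 CPM. For both the double-lesion libraries fell inside the range of the controls. The 95% intervals were -0.25 to 0.38 for Mcm2, -0.17 to 0.52 for Mcm3, -0.32 to 0.18 for Mcm4, -0.38 to 0.20 for Mcm5, -0.10 to 0.35 for Mcm6 and -0.38 to 0.09 for Mcm7. Falls of the size estimated for the 10 genes that passed, -0.40 (Pcna) to -0.89 (Clspn), lie outside all 6 of these intervals. Some smaller falls lie inside these intervals. The 10 were picked for passing in these data, and their own estimates carry error. The 95% interval of Pcna, -0.67 to -0.13, overlaps those of Mcm5 and Mcm7, while that of Clspn, -1.22 to -0.56, overlaps none of the 6. The loaders Cdc6 (-0.15 ± 0.15) and Cdt1 (0.14 ± 0.24) did not pass either. In this comparison 1 licensing gene was called under any of the 21 alternatives, Mcm7 at -0.39 with the length and GC trend removed (adjusted p = 0.0159). The same removal turned the sign of Mcm2 (-0.17), Mcm3 (-0.09) and Cdt1 (-0.19), none of which passed. Mcm7 shares exon bases with Cops6 and Ap4m1 on the opposite strand and with 2 microRNA genes on its own strand, and is uncertain. That all 8 of 8 missed the threshold while 10 of the other 25 passed is a count, and the difference between the roles was not tested.

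Per kb of the longest annotated transcript, the 6 subunits of the ring were not level with each other, although the ring holds 1 of each. Which transcript the cells used was not measured, so the order of genes on this scale is uncertain. In Vav Cre, Mcm6 was at 185 ± 21.7 CPM per kb, Mcm7 at 174 ± 23.5, Mcm3 at 125 ± 31.5, Mcm5 at 118 ± 16.8, Mcm2 at 116 ± 14.0 and Mcm4 at 82.3 ± 10.9. Mcm6 and Mcm7 led and Mcm4 was last in each genotype, while Mcm3, Mcm5 and Mcm2 lay within each other's spread in the control. In the double lesion the values were 201 ± 4.28, 157 ± 4.16, 138 ± 1.45, 111 ± 9.75, 121 ± 7.13 and 77.8 ± 2.59 in the same order. On this scale Pcna was at 267 ± 43.7 CPM per kb in Vav Cre, above Mcm6, and at 201 ± 17.8 in the double lesion, level with Mcm6 there. Ung, a uracil-removing glycosylase, had the lowest mean over the 12 libraries (2.80 CPM per kb).

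**Figure D3:**
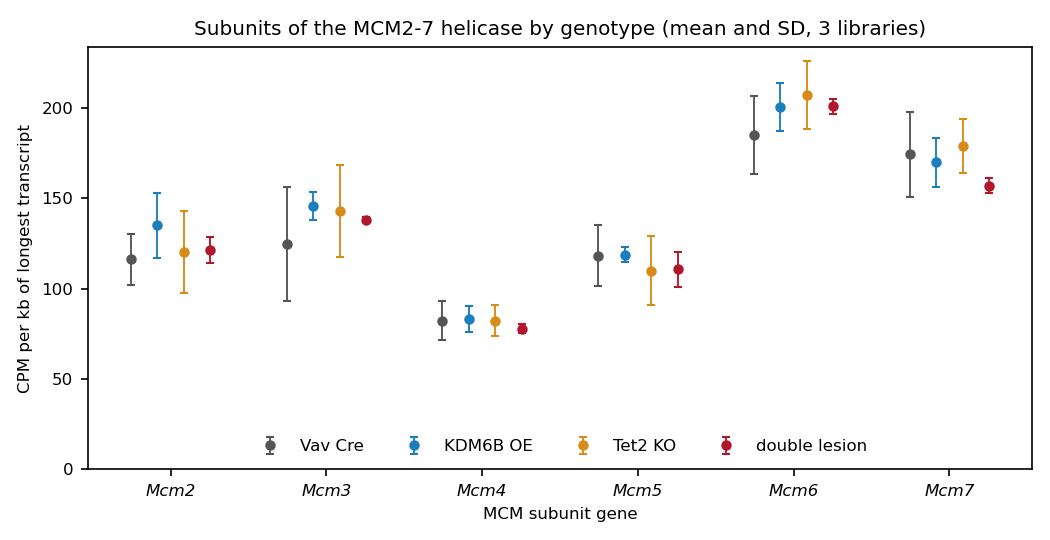
CPM per kb of longest transcript (y axis, from 0) of the 6 helicase subunit genes (x axis) in the 4 genotypes, as mean and SD of 3 libraries. Mcm6 and Mcm7 are the highest and Mcm4 the lowest in every genotype, and no subunit gene passed limma's test in any comparison.

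The regulators of S phase entry and the 2 repair genes did not pass. E2f8, a repressor among the E2F factors, was at 41.2, 43.4 and 51.0 CPM in Vav Cre and 25.4, 28.5 and 38.3 CPM in the double lesion, without overlap (-0.56 ± 0.20, adjusted p = 0.0727). Dtl, which directs the destruction of CDT1 once replication has begun, did not overlap either (144, 156 and 158 against 119, 126 and 125 CPM, -0.30 ± 0.12, adjusted p = 0.1003). The cyclin E genes were low and uneven. Ccne1 was at 10.5, 20.5 and 16.6 CPM in the control, 16.2, 30.6 and 26.7 in KDM6B OE, 15.1, 13.2 and 19.4 in Tet2 KO and 9.21, 23.1 and 24.4 in the double lesion. Its 4 groups overlapped, and double lesion 1 was the lowest of the 12 libraries. Ccne2 was at -0.36 ± 0.27 (adjusted p = 0.383), the exonuclease gene Exo1 at -0.28 ± 0.15 (adjusted p = 0.199) and Ung at -0.06 ± 0.24 (adjusted p = 0.885).

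Over the whole set in the double lesion, 27 of 33 differences from Vav Cre were negative, with a median of -0.28, against 45.6% negative and a median of 0.05 over all genes tested. Groups did not overlap, with the double lesion lower, for 14 of 33, against 16.4% of all genes. At an unadjusted p under 0.05, 16 of 33 were lower and 0 higher, against 14.9% and 17.4% of all genes. The mean was lowest in the double lesion for 23 of 33 members, as it was for 30.3% of all genes tested. For 19 of 33 both single-lesion means lay below Vav Cre and the double-lesion mean below both, an order held by 20.7% of all genes tested. Since the members were chosen with earlier results known, these counts are a description, and the set as a whole was not tested.

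The counts moved with single libraries, and so did the share of all genes called, which was 14.9% in both directions with all 12 libraries. Double lesion 1 was the lowest of all 12 libraries for 20 of the 33 genes, and Vav Cre 2 was the highest for 15. Of the 25 members outside licensing, double lesion 1 was lowest for 19. Without double lesion 1 the count of members that fell was 2 (Clspn and Tyms), where 2.31% of all genes were called, and the median of the 33 was -0.14. Without Vav Cre 2, the library with the most erythroid marker RNA, it was also 2, again Clspn and Tyms (4.69% of all genes). It was 3 without double lesion 2 (5.75%) and 5 without double lesion 3 (6.36%). Without Vav Cre 3, 12 fell and Uhrf1 rose (0.56, adjusted p = 0.0331), where 27.6% of all genes were called. With only the 6 compared libraries in the fit, Clspn alone passed (adjusted p = 0.0428), with 2.29% of all genes. With Y-linked transcripts as a term, chosen after seeing the data, 7 passed, all but Pcna, Tipin and Hells of the 10, with 10.4% of all genes.

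**Figure D4:**
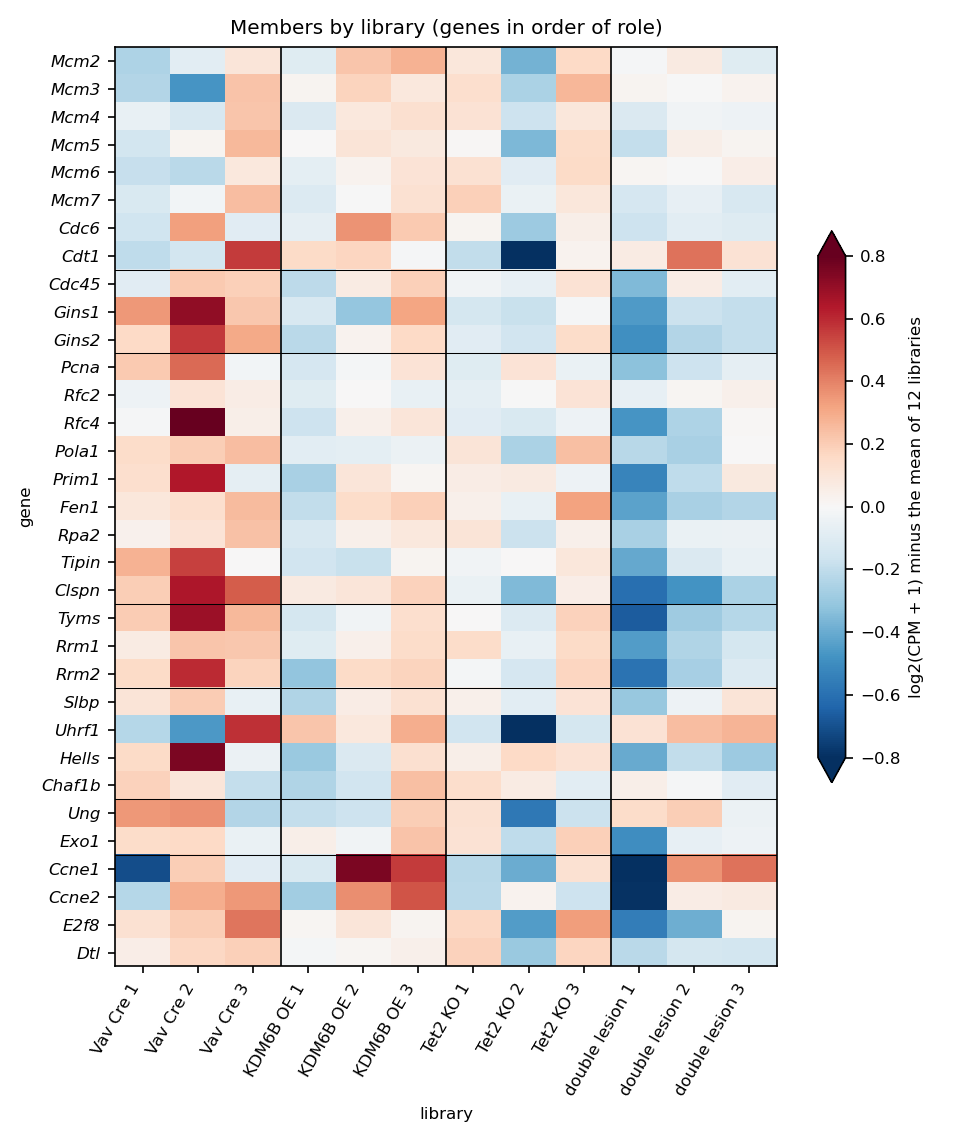
Log2(CPM + 1) of the 33 genes (y axis, in order of role) in the 12 libraries (x axis) as the deviation from the gene's mean over the 12, in colour, with values past 0.8 in the end colours. Double lesion 1 is the lowest library for 20 genes and Vav Cre 2 the highest for 15. The first 8 genes are those of licensing.

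Library by library, the licensing genes and the other 25 members are given side by side, with no test between them. In Vav Cre 1, 2 and 3 the median deviation of the 8 licensing genes from their 12-library means was -0.17, -0.11 and 0.22, and that of the 25 others 0.14, 0.22 and 0.19. In double lesion 1, 2 and 3 the licensing median was -0.06, -0.00 and -0.01 and that of the others -0.43, -0.17 and -0.06. The licensing genes were thus low in 2 of 3 controls and near their mean in the double lesion. Tet2 KO 2 had the lowest value of all 12 libraries for 5 of the 8 licensing genes, with a median of -0.27. Cdt1 was at 35.2 CPM there, against 60.5 and 71.0 CPM in Tet2 KO 1 and 3.

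**Figure D5:**
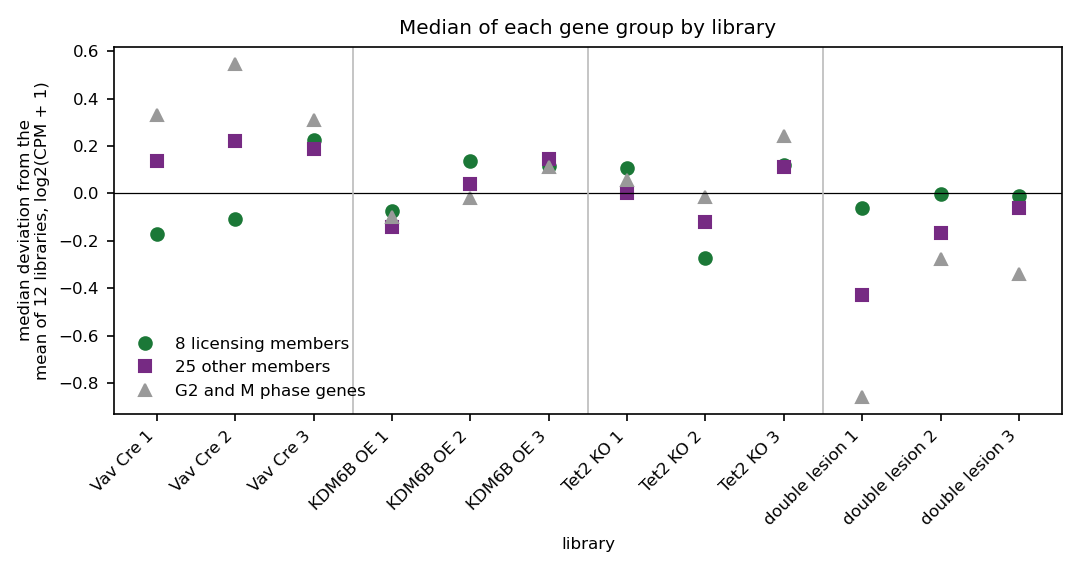
Median deviation from the mean of 12 libraries (y axis, log2(CPM + 1)) in each library (x axis) for the 8 licensing genes (circles), the 25 other members (squares) and 40 genes of G2 and M phase (triangles). The last 2 groups are lowest in double lesion 1 (-0.43 and -0.86), where the licensing median is -0.06.

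In KDM6B OE against Vav Cre none of the 33 genes passed, where 0.598% of all genes did (0.521% higher, 0.0767% lower). At an unadjusted p under 0.05, 6 were lower and 0 higher, against 8.98% and 12.6% of all genes. Neither edgeR nor DESeq2 on the recovered reads called a member, where they called 0.598% and 5.59% of all genes. KDM6B OE lay below Vav Cre without overlap for 6 members, against 10.9% of all genes. The median was -0.11 against 0.04 over all genes. Lowest in p were Tipin (-0.38 ± 0.13, adjusted p = 0.145), Tyms (-0.40 ± 0.15, adjusted p = 0.160), Gins1 (-0.47 ± 0.18), Gins2 (-0.35 ± 0.15) and Hells (-0.38 ± 0.17). All 9 fork genes had negative differences, and 7 of the 8 licensing genes positive ones, with Mcm3 at 0.25 ± 0.16 and Mcm2 at 0.21 ± 0.15. Without Vav Cre 3, 3 members passed, Tipin (-0.52) and Hells (-0.55) lower and Mcm3 higher (0.45), where 14.9% of all genes passed. Cre is named for the control and not for KDM6B OE, so transgene and Cre cannot be told apart here.

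In Tet2 KO against Vav Cre none passed in limma or edgeR, where 0.0307% of all genes did (0.023% higher, 0.00767% lower). There, 4 members were lower and 0 higher at an unadjusted p under 0.05, against 5.44% and 8.05% of all genes. Clspn was lowest in p (-0.56 ± 0.15, adjusted p = 0.224). It was also called by DESeq2 on the recovered reads (-0.60, adjusted p = 0.0384), which called 1.23% of all genes in this comparison. Next in limma's p were Gins1 (-0.54 ± 0.18, adjusted p = 0.256), Gins2 (-0.37 ± 0.15), Tyms (-0.36 ± 0.15) and Rfc4 (-0.41 ± 0.21). For all 5 the Tet2 KO libraries lay below the control libraries without overlap, as for 5.7% of all genes. The median over the 33 was -0.14, and -0.03 without Tet2 KO 2. Both single-lesion comparisons use the same 3 control libraries, as does that of the double lesion.

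Against the single lesions no member of the set passed in the double lesion. Against KDM6B OE, where limma and edgeR called none of the 13046 genes (0%) and DESeq2 20, 4 members were lower and 0 higher at an unadjusted p under 0.05, against 3.14% and 2.77% of all genes. These were Clspn (-0.56 ± 0.15, adjusted p = 0.509), Fen1 (-0.36 ± 0.12, adjusted p = 0.656), Rrm1 (-0.31 ± 0.11) and Tyms (-0.38 ± 0.15), each without overlap, and Gins2 came next (-0.30 ± 0.15). In all, 7 members lay lower without overlap, against 9.72% of all genes. Against Tet2 KO, where 0.215% of all genes were called (0.192% higher, 0.023% lower), 4 members were lower and 2 higher at an unadjusted p under 0.05, against 5.09% and 5.52%. The lower ones were Fen1 (-0.41 ± 0.12, adjusted p = 0.292), Rrm1 (-0.36 ± 0.11, adjusted p = 0.292), Tyms (-0.42 ± 0.15) and Hells (-0.40 ± 0.17), and the higher ones Uhrf1 (0.59 ± 0.23) and Cdt1 (0.58 ± 0.24). Without overlap, 7 members lay lower and 2 higher, against 10.9% and 10.8% of all genes. Neither edgeR nor DESeq2 called a member in these comparisons, and against Tet2 KO they called 0.153% and 1.12% of all genes. Fen1 and Rrm1 thus lay below each other genotype in all 3 double-lesion libraries, and so did Tyms.

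The interaction sets the double-lesion difference from Vav Cre against the sum of the single-lesion differences, and so asks whether the lesions add. Since no Cre is named for KDM6B OE, a Cre effect does not cancel in it, nor in the double lesion against KDM6B OE, and cannot be told apart from the lesions there. No member passed in limma, edgeR or DESeq2, 0 of 33 had an unadjusted p under 0.05 against 4.43% of all genes, and 0% of all genes were called (5 genes in DESeq2). Fen1 (-0.30 ± 0.18), Cdt1 (0.55 ± 0.34), Ung (0.52 ± 0.34), Rrm1 (-0.22 ± 0.15) and Mcm3 (-0.29 ± 0.23) were lowest in p, each with an adjusted p of 0.999. For Clspn the value was -0.01 with a 95% interval of -0.47 to 0.46, and for Tyms -0.02 with -0.48 to 0.43.

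The rest of the replication machinery was read from a list of 50 further genes, all of which were measured. This list and those below were also chosen with earlier results known. In the double lesion 18 of the 50 fell and none rose, with a median of -0.31. Of all genes tested 7.58% fell and 7.34% rose in that comparison, with a median of 0.05. The 18 included Rnaseh2b and Rnaseh2c, subunits of the enzyme that removes ribonucleotides from DNA (-0.83 ± 0.13 and -0.79 ± 0.13, adjusted p = 0.00399 and 0.00551). The histone chaperone gene Nasp fell (-0.88 ± 0.14, adjusted p = 0.00428), as did Tk1, the thymidine kinase of S phase (-1.02 ± 0.16, adjusted p = 0.00432). In the single lesions none of the 50 passed. Of 20 genes of the E2F, RB and cyclin control of S phase entry, 5 fell and none rose. This list as a whole was near level, with 8 positive and 12 negative differences and a median of -0.05. Ccna2, the cyclin of S and G2 phase, fell (-0.90 ± 0.17, adjusted p = 0.00773), with Skp2 (-0.61 ± 0.17), E2f3 (-0.82 ± 0.24), the pocket protein gene Rbl1 (-0.40 ± 0.12) and Tfdp1 (-0.37 ± 0.11).

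Genes of G2 and M phase gave the larger numbers. Of 40, 36 fell in the double lesion, against 7.58% of all genes, with a median of -0.85. Among them were Cdca3 (-1.32 ± 0.14), Nusap1 (-1.197 ± 0.16), Cdca8 (-1.09 ± 0.15) and Top2a (-1.003 ± 0.14, adjusted p = 0.00282). Against Tet2 KO, 2 of them fell as well, Cdca3 and Nusap1, and in KDM6B OE against Vav Cre 1, Cdca3 (-0.73 ± 0.14, adjusted p = 0.0389). Double lesion 1 was the lowest library for 39 of the 40. The summed level of these genes was 9937 to 12251 CPM in the control, 7472 to 8396 CPM in KDM6B OE, 7830 to 9355 CPM in Tet2 KO and 4480 to 6441 CPM in the double lesion. The summed level of the 33 replication genes was 7091 to 7926, 6645 to 7778, 6516 to 7815 and 6218 to 6961 CPM in the same order. The double lesion was apart from all others in the first sum and below the Vav Cre range in the second, where it overlapped both single lesions. Of 12 LSK markers 4 rose and none fell in the double lesion (9 positive, 3 negative, median 0.23). Over all genes 7.34% rose and 7.58% fell. Meis1, Gata2 and Hlf, genes of blood stem cells, were among the LSK markers that rose. Of 13 long-term stem cell genes, some of them on the first list, 2 rose and none fell (8 positive, 5 negative, median 0.12).

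Promoters are shown because E2F factors are the textbook regulators of these genes. RefSeq promoter sequences (250 bases before to 50 after the start, GRCm38.p6) were found for 26 of the 33 genes. An E2F word was any of TTTGGCGC, TTTCGCGC, TTTCCCGC and TTTGCCGC on either strand, and none of these holds CCAAT or TTTGAA. Below, capitals mark the E2F words. Mcm3 and Mcm6 stand for the licensing genes, Clspn and Hells for genes that fell and hold a word, and Tyms and Rrm2 for genes that fell and hold none in this window.
Mcm3, chr1:20820263-20820562, minus strand: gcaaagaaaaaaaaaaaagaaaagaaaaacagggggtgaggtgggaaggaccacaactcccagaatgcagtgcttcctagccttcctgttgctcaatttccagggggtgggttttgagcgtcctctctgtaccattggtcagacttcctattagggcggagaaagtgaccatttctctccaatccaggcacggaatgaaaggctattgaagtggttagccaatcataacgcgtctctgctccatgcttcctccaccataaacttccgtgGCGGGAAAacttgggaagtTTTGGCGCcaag
Mcm6, chr1:128359656-128359955, minus strand: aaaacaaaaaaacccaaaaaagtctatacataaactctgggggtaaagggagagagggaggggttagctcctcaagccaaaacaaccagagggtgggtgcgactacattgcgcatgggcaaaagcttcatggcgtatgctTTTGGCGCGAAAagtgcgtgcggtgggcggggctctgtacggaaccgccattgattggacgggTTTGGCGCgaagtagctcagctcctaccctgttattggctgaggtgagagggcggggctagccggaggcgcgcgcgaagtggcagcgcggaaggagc
Clspn, chr4:126556730-126557029, plus strand: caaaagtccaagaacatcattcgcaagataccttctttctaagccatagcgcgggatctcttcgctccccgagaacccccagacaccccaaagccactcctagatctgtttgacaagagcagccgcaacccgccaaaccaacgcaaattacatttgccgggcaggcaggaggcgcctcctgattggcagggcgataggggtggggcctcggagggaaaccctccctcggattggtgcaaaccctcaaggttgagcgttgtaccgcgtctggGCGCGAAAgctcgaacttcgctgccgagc
Hells, chr19:38930740-38931039, plus strand: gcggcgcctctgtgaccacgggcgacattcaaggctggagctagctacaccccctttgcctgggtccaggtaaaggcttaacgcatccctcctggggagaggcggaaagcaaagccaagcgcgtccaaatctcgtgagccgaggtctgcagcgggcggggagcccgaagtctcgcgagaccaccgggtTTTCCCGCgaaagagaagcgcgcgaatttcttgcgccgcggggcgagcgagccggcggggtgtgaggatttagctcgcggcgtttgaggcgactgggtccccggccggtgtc
Tyms, chr5:30073576-30073875, minus strand: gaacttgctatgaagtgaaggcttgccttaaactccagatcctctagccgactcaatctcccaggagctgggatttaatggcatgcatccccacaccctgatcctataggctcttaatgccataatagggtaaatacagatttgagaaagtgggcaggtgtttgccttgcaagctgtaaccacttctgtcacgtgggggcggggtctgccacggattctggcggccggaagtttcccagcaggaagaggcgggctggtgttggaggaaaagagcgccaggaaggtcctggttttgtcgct
Rrm2, chr12:24708004-24708303, plus strand: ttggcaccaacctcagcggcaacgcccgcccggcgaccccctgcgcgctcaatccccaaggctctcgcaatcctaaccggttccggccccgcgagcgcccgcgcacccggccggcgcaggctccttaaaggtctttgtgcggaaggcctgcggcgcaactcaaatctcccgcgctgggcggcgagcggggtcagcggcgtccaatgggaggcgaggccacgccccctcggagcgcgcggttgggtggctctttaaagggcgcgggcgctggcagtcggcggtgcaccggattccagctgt

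An E2F word was present in 11 of the 26 genes with a promoter (42.3%), against 4.31% of 11485 genes of the table with a promoter. Some genes, such as Fen1, Mcm7 and Uhrf1, had more than 1 promoter sequence. A gene was counted for a word if any of its sequences held it. In Mcm6 there were 3 matches, 2 of which overlap on opposite strands. By role, 6 of 7 licensing genes with a promoter held the word (all but Mcm2). Of the 7 genes with a promoter that fell in the double lesion, 2 held it. Among G2 and M phase genes 2 of 34 held it (5.88%). The CCAAT box, searched as CCAAT on either strand, was in 17 of 26 (65.4%) against 42.3% of all, and in 26 of 34 G2 and M phase genes (76.5%). TTTGAA, the cell cycle homology region found in promoters of mitotic genes, was in 4 of 26 (15.4%) against 14.6% of all, and in 25 of 34 G2 and M phase genes (73.5%). These are matches of letters in a short window and say nothing about binding, and no difference between the groups of promoters was tested.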

How the data were processed

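RNA of sorted LSK cells was measured in 12 libraries, and groups and replicate numbers were taken from the sample titles. The submitters' processing notes name TopHat2 2.0.10, HTSeq 0.6.0, edgeR 3.8.6 and the build mm10. Which annotation and strand option the counting used is not given in the sources used here. Values in the deposited table are a signal unit, gene counts divided by the authors' effective library sizes (CPM). All values gave whole reads back (100% within 1e-06 reads), at 0.0373 to 0.0463 CPM a read. No gene had under 10 reads over the 12 libraries.

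The main test was limma 3.58.1 (R 4.3.3, empirical Bayes with a mean trend) on log2(CPM + 1), keeping genes whose CPM passed 1 in 3 or more libraries. It had 1 mean per genotype and 8 residual degrees of freedom, with Benjamini-Hochberg adjustment over all 13046 genes in each of 6 comparisons. A log2(CPM + 1) difference understates the change of low genes. The design had foreseen plain CPM, and its test was kept. The step was tested on simulated counts.

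Members, roles and lists were chosen with earlier results of these data known. Genes named are all members that passed, the 5 members of lowest p in each comparison, up to 4 passing genes of each other list, and levels of members by role. Alternatives were a pseudocount of 0.25, no filter, only the compared groups, equal totals, a replicate block, edgeR 4.0.16 and DESeq2 1.42.0 on the recovered reads, and each library left out. A term for Y-linked transcripts and removal of a length and GC trend were added after seeing the data. Positions, exon overlaps and lengths are from GENCODE on GRCm38 (14743 of 15366 genes matched by symbol) and promoters from RefSeq (GRCm38.p6). Reads carry no molecular identifiers. Some genes of the marker lists are not reported here.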

Additional observations from a re-analysis of the deposited data

How the results depend on the processing

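The counts of members passing in the double lesion against Vav Cre ranged from 2 to 13 when 1 library was left out, and the median of the 33 from -0.33 to -0.14. The share of all genes called moved with it, from 2.31% to 27.6%. The count was 1 with only the compared groups (2.29% of all genes), 14 in DESeq2 (20.5%), 9 in edgeR (12.7%), without a filter (11.5%) and with equal totals (15.7%), 10 with a pseudocount of 0.25 (14.9%) or the length and GC trend removed (14.5%), and 7 with the Y-linked term (10.4%). With the length and GC trend removed the 10 were not the same genes, since Gins1, Pcna and Tipin were lost and Mcm7, Pola1 and E2f8 passed. For KDM6B OE the count ranged from 0 to 3 with 1 library left out, where 0.169% to 14.9% of all genes were called. In Tet2 KO it was 1 in DESeq2 (1.23% of all genes). In the other 3 comparisons it was 0 under every alternative run. With the replicate block 12 members passed in the double lesion (20.7% of all genes) and none elsewhere. The numbers were not taken to pair the libraries, since not every same-numbered pair correlated above 0.1. Of 18 same-numbered pairs across groups 10 had deviations correlated above 0.1 (median 0.14, lowest -0.15), against 5 of 36 pairs of different numbers (median -0.04). All 6 pairs of number 1 lay between 0.158 and 0.388, and 6 of 12 libraries correlated best with their own number. Clspn kept its call under all 21 alternatives and Tyms under 20 (adjusted p = 0.0512 with only the compared groups). The others kept it under 18 (Gins2), 17 (Rrm1, Rrm2), 16 (Fen1), 15 (Gins1), 12 (Tipin, Hells) and 5 (Pcna). None of these 10 changed sign. Of the other 23 members, 11 changed sign under some alternative, none of them past the threshold there. With 3 libraries a group, differences the size of those in the licensing genes are within the error.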
